A study of Mus musculus with 19 samples.

Results

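The genes described here encode the cytosolic and mitochondrial chaperones of mouse skeletal muscle, with their helper proteins and the heat shock factors that control many of them. They were chosen from a list of 41 gene symbols covering the Hsp70, Hsp110, Hsp90, Hsp60, Hsp40, Bag and TRiC families, each represented by its brightest probe set annotated with that symbol alone. Of the 41, 37 had such a probe set among 12393 genes measured that way, and 36 were bright enough to be tested among 7436 genes. Hsp90ab1, Ppid, Unc45b and Hsf1 had no single-symbol probe set and were not analysed here, and Hsf2 was measured but too dim for the test.

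RNA came from the tibialis anterior, a fast muscle of the lower leg, of 129/SVE mice, and was hybridised to 19 Affymetrix arrays. The groups were KO_Adult (desmin knockout, 7-9 weeks, 5 arrays), WT_Adult (wild type, 7-9 weeks, 5 arrays), KO_Aged (desmin knockout, 12-14 months, 4 arrays) and WT_Aged (wild type, 12-14 months, 5 arrays). Every muscle, knockout and wild type alike, had performed 50 eccentric contractions 12 hours before its RNA was taken, so no array shows muscle at rest. Nothing in the labels ties each array to its own animal, so a p-value here reflects only how far these arrays spread, which may be technical. Replicate numbers below only name the arrays of a group.

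Chaperones bind unfolded or partly folded proteins and help them to fold, to be refolded after stress or to be passed on for degradation. Hsp70 works in cycles of ATP binding and hydrolysis, with J proteins of the Hsp40 family delivering its clients and Hsp110 and Bag proteins releasing the nucleotide. Hsp90 receives clients from Hsp70 through Stip1 and matures them with the help of Ahsa1, Chordc1 and the immunophilins. Hsp60 with its lid Hsp10 folds proteins in the mitochondrial matrix, and the TRiC ring folds actin and tubulin in the cytosol. When proteins are damaged, heat shock factors bind short repeated elements in front of chaperone genes and raise their transcription. Lengthening contractions strain the myofibril, and desmin is the intermediate filament that links neighbouring myofibrils at their Z discs.

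The knocked-out gene followed its labels: Des averaged 537 ± 225 in KO_Adult and 16477 ± 2558 in WT_Adult muscles, and 335 ± 209 in KO_Aged and 11699 ± 744 in WT_Aged muscles (normalised intensity, SD). Signal of the poly-A control transcript dap, which is added to RNA before labelling, separated 8 arrays at 1184 to 3103 from 11 arrays at 1 to 17.4. This split is called here a labelling batch, as a name only, because the labels record no batch. An 18S ribosomal RNA control probe set split the same arrays, at 5835 to 19660 and at 29.1 to 181. The origin of the split was not tested. The batch with control signal held all 5 WT_Aged arrays and 3 of the 5 KO_Adult arrays (replicates 3, 4 and 5), and the batch without it held the rest. WT_Aged and WT_Adult therefore lie wholly in different batches, as do WT_Aged and KO_Aged, and a batch term could be fitted only through the KO_Adult arrays. KO_Aged replicates 2 and 3 had Gapdh 3′ to 5′ ratios of 8.61 and 5.01, a ratio used as a measure of RNA shortening, against 0.766 to 0.968 on the other 17 arrays. The 8 fast fibre markers summed to 199835 to 218778 over the 19 arrays in this fast muscle. The 7 endothelial markers summed to 2311 to 2779 in KO_Adult and 4671 to 6037 in WT_Adult muscles, and to 1874 to 2882 in KO_Aged and 3752 to 4583 in WT_Aged muscles. The 6 slow fibre markers summed to 7653 to 19297 in KO_Aged and 2199 to 5652 in WT_Aged muscles, and to 2060 to 5968 in KO_Adult and 2359 to 6909.8 in WT_Adult muscles. The 5 neutrophil markers summed to 6789 to 13389 in KO_Aged and 2425 to 13284 in WT_Aged muscles, and to 467 to 4351 in KO_Adult and 447 to 1647 in WT_Adult muscles. The 5 fibroblast markers summed to 18968 to 26501 in KO_Aged and 8829 to 14962 in WT_Aged muscles, and to 11238 to 22818 in KO_Adult and 15236 to 17473 in WT_Adult muscles. The 8 macrophage markers overlapped in both genotype comparisons. The median of each of these markers was above the pseudocount in all 4 groups, and their part in the chaperone values was not tested. In whole muscle, fewer cells of a type and less RNA per cell cannot be told apart.

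Promoters were read for 33 of the 41 genes from RefSeq (build GRCm38.p6, 250 bases before to 50 bases after the start) to show which members carry the element that heat shock factors recognise. The strict form, 3 alternating units spelled GAANNTTCNNGAA or TTCNNGAANNTTC and so searched on both strands at once, occurred in 5 of the 33 genes, Hspd1, Hspe1, Dnajb6, Hsph1 and Chordc1, against 0.662% of all 27025 genes with a promoter. The shorter form with 2 units, GAANNTTC or TTCNNGAA, which every strict match also contains, occurred in 13 of the 33 against 17.0% of all genes. Dnajb1, Hsp90aa1 and Hspa2, which also lead comparisons below, are not among the 13 genes with a match. Whether their promoters were among those of the 33 genes read was not recorded, so a lack of the element cannot be read from this. The stretches below were picked among genes with a match that lead the comparisons that follow, or stand apart from them, and the capitals mark the matched letters.
Hspe1, chr1:55088038-55088097, plus strand, 2 overlapping strict matches, the first starting 89 bases before the start: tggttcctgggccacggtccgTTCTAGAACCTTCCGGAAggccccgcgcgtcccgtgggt
Chordc1, chr9:18292227-18292286, plus strand, 3 overlapping strict matches across the start, with 20 bases of the transcript: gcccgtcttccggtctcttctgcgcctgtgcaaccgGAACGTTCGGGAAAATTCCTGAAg
Dnajb6, chr5:29735818-29735877, plus strand, 1 strict match 46 bases before the first of 2 listed starts: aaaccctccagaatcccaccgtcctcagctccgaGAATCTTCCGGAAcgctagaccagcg
Hspa1a, chr17:34972227-34972286, minus strand, 1 shorter match 104 bases before the start: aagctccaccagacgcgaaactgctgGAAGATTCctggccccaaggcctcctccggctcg
Dnaja1, chr4:40722318-40722377, plus strand, 1 shorter match 124 bases before the start: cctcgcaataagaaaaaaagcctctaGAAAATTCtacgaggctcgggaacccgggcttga
The Hspe1 stretch is also the promoter of Hspd1, which is read from the opposite strand with its start 216 bases away, so both genes hold the same matches. A match is a run of letters in this window and does not show that a factor bound there.

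The members differed widely in how much they varied between arrays. The standard deviation of the log2 values over the 19 arrays was 1.80 for Dnajb1, 1.39 for Hsp90aa1, 1.32 for Hspa1a and 1.25 for Dnaja1, against a median of 0.45 over all genes tested. The 7 listed TRiC subunits lay between 0.18 and 0.38. The 9 most variable tested members were Dnajb1, Hsp90aa1, Hspa1a, Dnaja1, Trap1, Dnajb4, Dnajb5, Chordc1 and Hspa1b. Within groups some arrays held most of the extremes. KO_Adult replicate 4 was the highest of its group for 7 of the 9 and KO_Aged replicate 1 for 7, while WT_Adult replicate 1 and WT_Aged replicate 1 were each the lowest of their group for 8. The other extremes were more spread. KO_Aged replicate 2 was the lowest for 6 and KO_Adult replicate 5 for 3, and WT_Adult replicate 4 was the highest for 5 and WT_Aged replicate 2 for 4. Hspa1a and Hspa1b, which can share signal, both count among the 9. The map of all members over the arrays shows these columns.

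**Figure D1:**
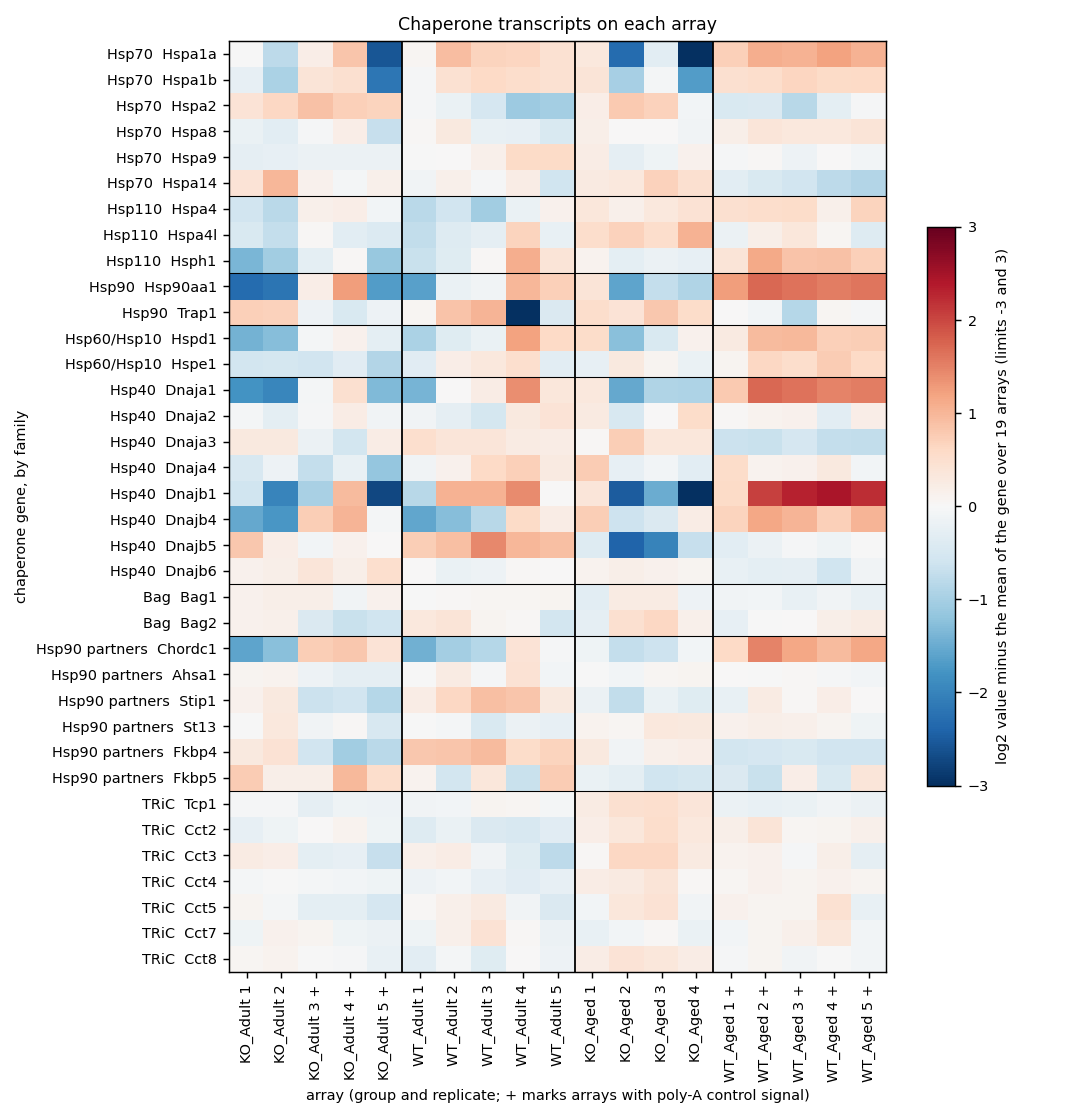
Heat map of the 36 tested chaperone genes (rows, by family) on the 19 arrays (columns, by group), coloured by log2 value minus the mean of the gene over the 19 arrays, with the colour ending at -3 and 3. WT_Aged arrays are red for Dnajb1, Dnaja1 and Hsp90aa1, several knockout arrays are blue for them, and the TRiC rows stay pale.

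In adult muscle 12 hours after contractions 6 of 36 members were called between knockout and wild type, 16.7% and so the same share as of all genes. The Hsp70 protein Hspa2 was higher in the knockout and 5 other members were lower, of which none was called with the labelling batch as a term. Hspa2 rose 2.34-fold, while the Hsp90 immunophilin Fkbp4, the Hsp70 to Hsp90 adaptor Stip1, the J protein Dnaja4, the mitochondrial Hsp10 Hspe1 and the mitochondrial Hsp70 Hspa9 fell by 1.38- to 2.15-fold. Thus 1 of 36 members rose and 5 fell (limma, Benjamini-Hochberg over 7436 genes), beside 7.32% of all genes called higher and 9.37% called lower. The median difference of the members was -0.14 on the log2 scale, beside 0.041 for all genes tested. With median centring in place of quantile normalisation, which moved the median of all genes to 0.20, 4 members were called higher and 2 lower, beside 12.3% and 4.95% of all genes, and the members' median was 0.12. With no normalisation between arrays 2 members were called higher and 5 lower, beside 421 and 996 of all genes. Hspa2, Stip1 and Fkbp4 were called in the same direction under quantile normalisation and median centring. The fit with a labelling batch term takes this difference from KO_Adult replicates 1 and 2 alone, against WT_Adult muscles.

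Hspa2, an Hsp70 best known from the testis, had normalised intensities of 262, 305, 361, 321 and 314 in KO_Adult muscles, against 191, 169, 137, 88.5 and 94.4 in WT_Adult muscles. All 5 KO_Adult arrays, which come from both labelling batches, lay above all 5 WT_Adult arrays, which all lack control signal. The log2 difference was 1.23 ± 0.22 (SE), with an adjusted p of 0.0012, and 1.09 with an adjusted p of 0.0332 when the batch was a term. Hspa14, a ribosome-associated Hsp70, had 309, 465, 254, 222 and 257 in KO_Adult and 216, 261, 227, 272 and 153 in WT_Adult muscles. Its groups overlapped, and its difference of 0.39 passed only with the batch term, where it was 0.76 (adjusted p = 0.183 without the term and 0.0473 with it).

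Among the genes that fell, Fkbp4, which escorts steroid receptors on Hsp90, had 949, 1052, 523, 375 and 444 in KO_Adult muscles, against 1376, 1397, 1499, 1142 and 1237 in WT_Adult muscles. The groups did not overlap, but KO_Adult replicates 3 to 5, which carried control signal, were the lowest. Its difference of -1.10 ± 0.22 (SE, adjusted p = 0.00277) was -0.40 with the batch term (adjusted p = 0.128). A second Fkbp4 probe set, much dimmer with a mean of 48.4, differed by 0.50 and did not pass (adjusted p = 0.168). Stip1 showed the same split of arrays as the Fkbp4 set used, with 1293, 1436, 747, 784 and 651 in KO_Adult and 1385, 1803, 2199, 2084 and 1451 in WT_Adult muscles. Only KO_Adult replicate 2 reached the WT_Adult range, and replicates 3 to 5 were the lowest. The difference of -0.91 (adjusted p = 0.00746) was -0.36 with the batch term (adjusted p = 0.288). Hspe1, the lid of the Hsp60 barrel, had 3558, 3623, 3471, 4127 and 2826 in KO_Adult and 4087, 6017, 6465, 7324 and 4190.4 in WT_Adult muscles. Only KO_Adult replicate 4 reached the WT_Adult range. Its difference was -0.64 ± 0.18 (SE, adjusted p = 0.0218) and -0.61 with the batch term (adjusted p = 0.138). A second Hspe1 probe set, with a mean of 1916, differed by -0.33 and did not pass (adjusted p = 0.183). Dnaja4 and Hspa9 did not overlap between the groups either, at 1958 to 3917 in KO_Adult and 4058 to 7225 in WT_Adult muscles for Dnaja4 and 3948 to 4216 and 4718 to 7136 for Hspa9. Their differences of -0.87 and -0.47 kept their sign with the term, at -0.65 and -0.51, and no longer passed (adjusted p = 0.195 and 0.0997). A second Hspa9 probe set, with a mean of 2689 against 4825, differed by -0.050 in adult and -0.44 in aged muscle (adjusted p = 0.83 and 0.0308). Of 2 other Dnaja4 probe sets, one with a mean of 3908 against 4620 differed by 0.037 in adult and 0.63 in aged muscle (adjusted p = 0.919 and 0.0403), and one with a mean of 2602 by -1.41 in adult muscle (adjusted p = 0.0265). Hspa9 missed the threshold without any one of KO_Adult replicates 3 and 5 and WT_Adult replicates 4 and 5, and Hspe1 without any one of KO_Adult replicate 5 and WT_Adult replicates 3 and 4, with differences of -0.53 to -0.38 and -0.75 to -0.54 whichever array was left out. Of 36 members, 2 were higher without overlap (Hspa2 and Dnajb6) and 3 lower (Hspa9, Dnaja4 and Fkbp4), beside 4.49% and 5.58% of all genes.

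On the probe sets used, Dnajb1, Hspa1a, Hspa1b, Hsp90aa1, Dnaja1 and Hsph1 did not pass in adult muscle without the batch term. Dnajb1, the main stress-induced J protein of Hsp70, had 1718, 653, 1311, 5007 and 384 in KO_Adult muscles, against 1449, 5307, 5288, 6922 and 2599 in WT_Adult muscles. KO_Adult replicate 4 lay within the WT_Adult range and WT_Adult replicate 1 within the KO_Adult range, so the groups overlapped (difference -1.60 ± 0.68, SE, adjusted p = 0.115). A second Dnajb1 probe set differed by -2.58 and did pass (adjusted p = 0.0251 adjusted over all single-symbol probe sets tested). Hspa1a, the stress-induced Hsp70, had 9488, 5609, 11125, 17154 and 1618 in KO_Adult and 10043, 18394, 15378, 15184 and 13256 in WT_Adult muscles. Its near-identical neighbour Hspa1b can share its signal, so the pair cannot be told apart with certainty, and neither passed (-1.02 and -0.89, adjusted p = 0.239 and 0.146). Hsp90aa1, the stress-induced cytosolic Hsp90, had 1171, 1286, 6761, 14008 and 1832 in KO_Adult and 1880.1, 5124, 5458, 11610.1 and 9635 in WT_Adult muscles. KO_Adult replicates 3 and 4 lay within the wild-type range or above it, and the other 3 lay below all WT_Adult arrays (difference -0.90, adjusted p = 0.315). Dnaja1, a farnesylated J protein, had 1260.4, 1117, 4212, 6064 and 1731 in KO_Adult and 1652, 4370.4, 5074, 11446 and 5521 in WT_Adult muscles. Hsph1, the stress-induced Hsp110, had 896, 1142, 1925, 2405 and 1062 in KO_Adult and 1461, 1815, 2387, 4984 and 3047 in WT_Adult muscles. Both overlapped between the groups, and on the probe sets used both passed only with the batch term, at -1.98 and -1.30 (adjusted p = 0.047 and 0.0422). A second Hsph1 probe set, with a mean of 1505 against 2642, differed by -1.27 and passed without the term (adjusted p = 0.0119 over all probe sets tested). With that term 2 members were called higher (Hspa2 and Hspa14) and 2 lower, beside 3.56% and 3.11% of all genes.

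**Figure D2:**
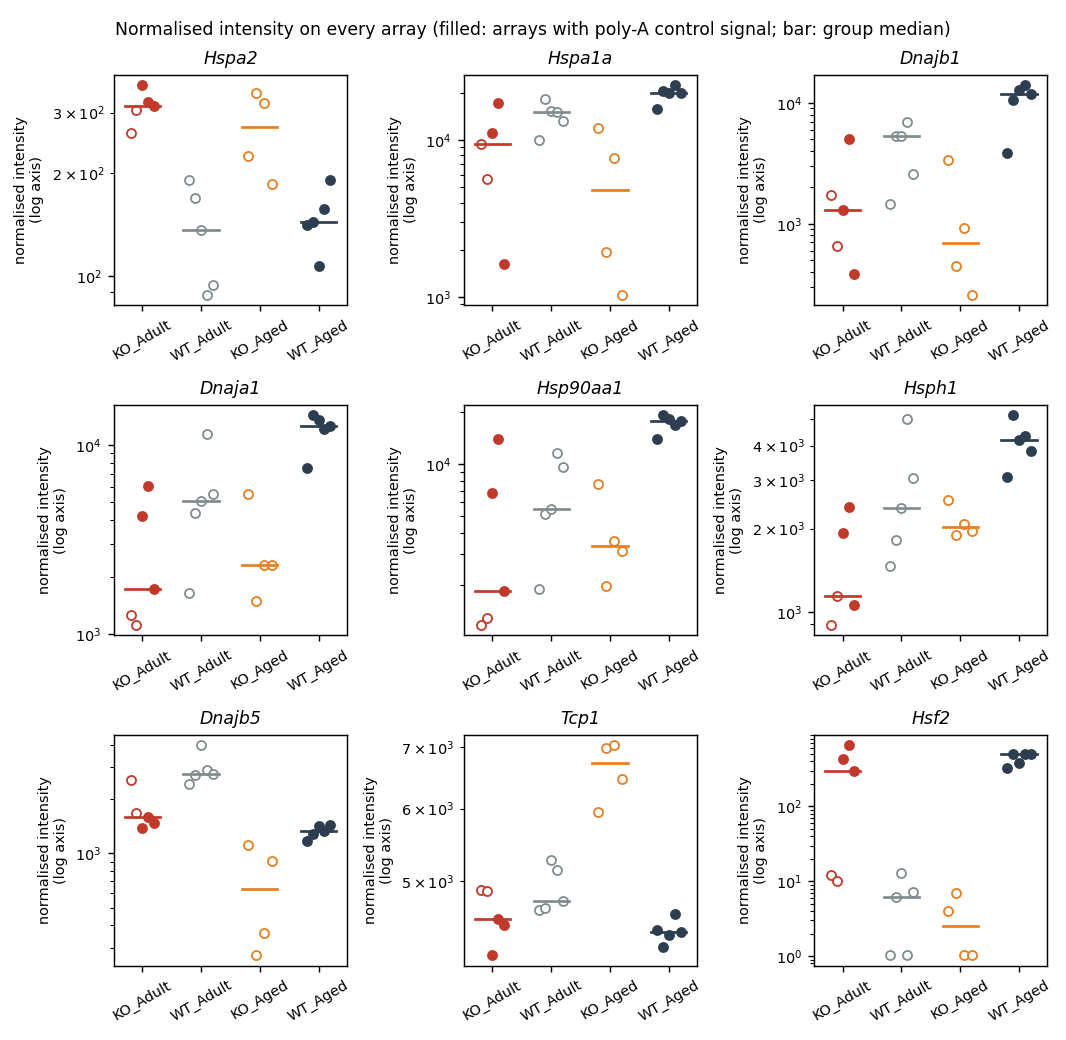
Normalised intensity (log axis) of 9 genes on every array by group, with filled points for arrays that carry poly-A control signal, open points for those that do not, and a bar at each group median. Hspa2 is higher on all KO_Adult than on all WT_Adult arrays, and Hsf2 follows the fill of the points and not the group.

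Because KO_Adult arrays lie in both labelling batches, knockout can be set against wild type inside each. In the batch without control signal, 2 KO_Adult arrays were compared with 5 WT_Adult arrays of the same age, and in the batch with it 3 KO_Adult arrays with 5 WT_Aged arrays, where age and genotype cannot be told apart. These comparisons share no array. Inside the batch with control signal 3 members were called higher and 8 lower, beside 8.46% and 7.96% of all genes. The 3 were Hspa2 (1.16 ± 0.17, SE), Hspa14 (0.67) and Dnajb6 (0.65), and the 8 were Dnajb1 (-2.83 ± 0.73), Dnaja1 (-1.73), Hsph1 (-1.25), Hspe1 (-1.11), Dnaja4 (-0.89), Hspd1 (-0.81), Stip1 (-0.75) and Bag2 (-0.60). Inside the batch without control signal no member passed with limma, beside 0.793% and 0.632% of all genes called higher and lower. At an unadjusted p below 0.05, a looser cut for which no share of all genes was counted, there were 9 members. There the differences were 1.09 ± 0.33 (SE) for Hspa2, 0.76 for Hspa14, 0.21 for Dnajb6, -1.82 ± 0.86 for Dnajb1, -1.98 for Dnaja1, -1.30 for Hsph1, -0.61 for Hspe1, -0.65 for Dnaja4, -1.41 for Hspd1, -0.36 for Stip1 and 0.093 for Bag2. Of the 8 members lower in the first comparison 7 were below 0 in this one, and the 3 higher members were above 0. The matching share over all called genes was not counted, so this only describes these members.

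Hspd1, the mitochondrial Hsp60, shows the pattern array by array. It had 1511 and 1688 on the KO_Adult arrays without control signal, against 2106, 3154, 3539, 9458 and 6162 in WT_Adult muscles, and 3917, 4438 and 3298 on the KO_Adult arrays with control signal, against 4914, 7899, 8006, 6628 and 6845 in WT_Aged muscles. Knockout arrays lay below all wild-type arrays inside both batches, while pooled KO_Adult and WT_Adult arrays overlapped. Hspa9, Hsph1, Hspd1, Hspe1, Dnaja1 and Dnaja4 were lower without overlap inside both batches, 6 of 36 members beside 3.51% of all genes. Hspa2, Hspa14 and Dnajb6 were higher without overlap inside both, 3 of 36 beside 5.37% of all genes, a share not far from the background. The gap was narrow for Hspa9 in the batch with control signal, at -0.13 (limma, adjusted p = 0.386). There its KO_Adult arrays reached 4216 and the lowest WT_Aged array was 4265. Hspd1, Hspe1, Hsph1 and Dnajb6 are among the 5 genes with a strict heat shock element, Hspd1 and Hspe1 through their shared promoter. Any relation of the element to direction was not tested, and the direction of Dnajb6 is uncertain, as described below. Endothelial marker sums also differed between KO_Adult and WT_Adult muscles without overlap, as given above, and their part was not tested.

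**Figure D3:**
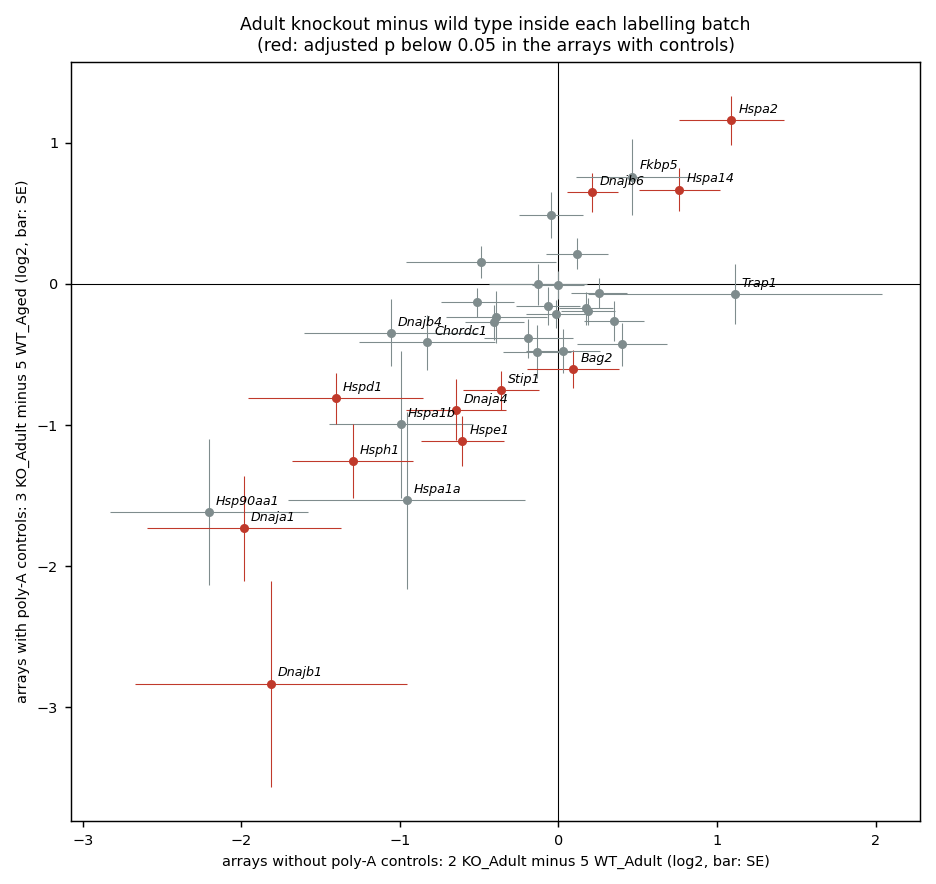
Knockout minus wild type (log2) for the 36 chaperone genes inside the labelling batch without control signal (horizontal axis, 2 KO_Adult and 5 WT_Adult arrays) and with it (vertical axis, 3 KO_Adult and 5 WT_Aged arrays), with standard errors as bars. Hspa2 lies in the upper right corner, Dnajb1, Dnaja1, Hsp90aa1 and Hsph1 lie at the lower left, and red marks an adjusted p below 0.05 in the batch with control signal.

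In aged muscle 16 of 36 members passed between knockout and wild type, 8 higher and 8 lower, beside 16.9% and 12.5% of all genes, or 29.5% in either direction. The 4 largest falls were those of Dnajb1 by 12.5-fold, Hspa1a by 5.31-fold, Hsp90aa1 by 4.74-fold and Dnaja1 by 4.56-fold. The risers were the mitochondrial J protein Dnaja3, Hspa14, Hspa2, the Hsp110 protein Hspa4l, Fkbp4, the TRiC subunits Tcp1 and Cct8, and Dnajb6. The median difference was 0.030, beside 0.073 for all genes. With median centring 4 members were called higher and 8 lower, beside 13.0% and 11.7% of all genes, and the median was -0.086. The even split also rested on the brightest probe sets. Taking the mean of a gene's probe sets gave 4 members higher and 11 lower, beside 1076 and 826 of all genes. The members' median was then -0.11. Without overlap between the groups 8 members were higher and 9 lower, beside 18.1% and 13.1% of all genes. These groups lie in different labelling batches, and the fit with a batch term called none of these 16. It called 1 other member lower, Stip1, at -1.33 (adjusted p = 0.0133, against -0.43 and 0.161 without the term), and none higher, beside 2.54% and 2.95% of all genes called with limma. In that fit 10 members had an unadjusted p below 0.05, a looser cut for which no share of all genes was counted. Without the 2 arrays of high Gapdh ratio 3 members were called higher (Dnaja3, Hspa14 and Tcp1) and 3 lower (Dnajb1, Hspa1a and Hspe1), beside 6.70% and 7.54% of all genes.

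Dnajb1 had 3343, 451, 925 and 259 in KO_Aged muscles, against 3826, 10652, 12804, 14063 and 11915 in WT_Aged muscles. The groups did not overlap, and KO_Aged replicate 4, whose Gapdh ratio was 0.968, was the lowest. The difference was -3.64 ± 0.72 (SE, adjusted p = 0.00127), and it was -3.28 with the batch term (adjusted p = 0.119). A second Dnajb1 probe set differed by -3.68. Hspa1a had 11939.8, 1933, 7699 and 1035 in KO_Aged and 15776, 20560.5, 19841, 22420.5 and 19957 in WT_Aged muscles. It also did not overlap, with a difference of -2.41 ± 0.62 (SE, adjusted p = 0.00767) and of -2.52 with the term (adjusted p = 0.155).

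Hsp90aa1 and Dnaja1 passed without the batch term and not with it. Hsp90aa1 had 7611, 1967, 3562 and 3146 in KO_Aged and 13985, 19173, 18201, 16882 and 17695 in WT_Aged muscles. All WT_Aged arrays were above all KO_Aged arrays, yet the difference of -2.25 ± 0.64 (SE, adjusted p = 0.0135) became -0.066 with the term (adjusted p = 0.973), and it did not pass without KO_Aged replicate 2 (-1.96 to -2.61 whichever array was left out). Dnaja1 had 5464, 1501, 2326 and 2301 in KO_Aged and 7534, 14341, 13494, 12166 and 12613 in WT_Aged muscles. Its difference of -2.19 ± 0.53 (SE, adjusted p = 0.00468) became -0.62 with the term (adjusted p = 0.661). Chordc1, an Hsp90 partner whose differences were -1.45 without the term and 0.61 with it, changed sign (adjusted p = 0.0242 and 0.467). Hsph1 at -0.95 and Hspe1 at -0.53 passed (adjusted p = 0.0313 and 0.0447), while Hspd1, with 5937, 1699, 2967 and 4478 in KO_Aged muscles and the WT_Aged values given above, did not (-0.99, adjusted p = 0.0876). Leaving out single arrays cost Hsph1 its call in 6 of 9 fits, Hspe1 in 7 of 9 and Chordc1 in 3 of 9, with differences of -1.05 to -0.86, -0.64 to -0.46 and -1.57 to -1.34.

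Dnajb5, a J protein of striated muscle and brain, had 1115, 273, 360.3 and 904 in KO_Aged and 1178, 1290.1, 1425, 1338 and 1446 in WT_Aged muscles. The lowest values, on KO_Aged replicates 2 and 3, were those of the 2 arrays with high Gapdh ratios. Its difference of -1.24 ± 0.31 (SE, adjusted p = 0.00691) was -0.41 without these arrays (adjusted p = 0.257) and -1.72 with the batch term (adjusted p = 0.0601).

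Of the members that rose, Dnaja3 had 1497, 2458, 1862 and 1850.4 in KO_Aged muscles, against 931, 912, 1031, 893 and 881 in WT_Aged muscles. It had 1781, 1796, 1300.2, 1001 and 1702 in KO_Adult and 2069.5, 1881, 1872, 1735 and 1697 in WT_Adult muscles. The WT_Aged arrays were the low group, and KO_Adult replicate 4 was the one array outside it that reached its range. The aged difference was 1.02 ± 0.17 (SE, adjusted p = 0.000348), or 0.57 with the batch term (adjusted p = 0.187). In adult muscle the probe set used differed by -0.32 (adjusted p = 0.189), and a second one, with a mean of 570, by -1.01 (adjusted p = 0.0437). Hspa14 had 279, 289.8, 378 and 328 in KO_Aged and 187, 169, 154, 132 and 125 in WT_Aged muscles. No arrays overlapped, and the difference was 1.04 ± 0.21 (SE, adjusted p = 0.00129), or 0.41 with the term (adjusted p = 0.408). Hspa2 had 224, 342, 319.5 and 186 in KO_Aged and 141, 144, 108, 158 and 191 in WT_Aged muscles. KO_Aged replicate 4 lay within the WT_Aged range, and the 2 highest arrays were those of high Gapdh ratio. Its difference of 0.81 ± 0.23 (SE, adjusted p = 0.0138) was 1.04 with the batch term (adjusted p = 0.114) and 0.47 without those 2 arrays (adjusted p = 0.272). Hspa4l had 179, 203, 179 and 259 in KO_Aged and 109, 140.4, 158, 128 and 93.7 in WT_Aged muscles, without overlap (0.69, adjusted p = 0.0342; 1.05 with the term, adjusted p = 0.108). Fkbp4 had a difference of 0.67 (adjusted p = 0.0399) that turned to -0.49 with the term (adjusted p = 0.163). Leaving out single arrays cost Hspa4l its call in 5 of 9 fits (0.57 to 0.77), Fkbp4 in 8 of 9 (0.62 to 0.75) and Hspa2 without KO_Aged replicate 2 or 3 (0.68 to 0.97). Dnajb6, a J protein that keeps aggregating proteins apart at the Z disc, rose by 0.43 on its brightest probe set (adjusted p = 0.0157, and 0.62 with the term, adjusted p = 0.069), but another of its probe sets, at a mean intensity of 1108 against 1390, fell by 0.75 (adjusted p = 0.00908 in a fit of all probe sets), so its direction is uncertain.

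**Figure D4:**
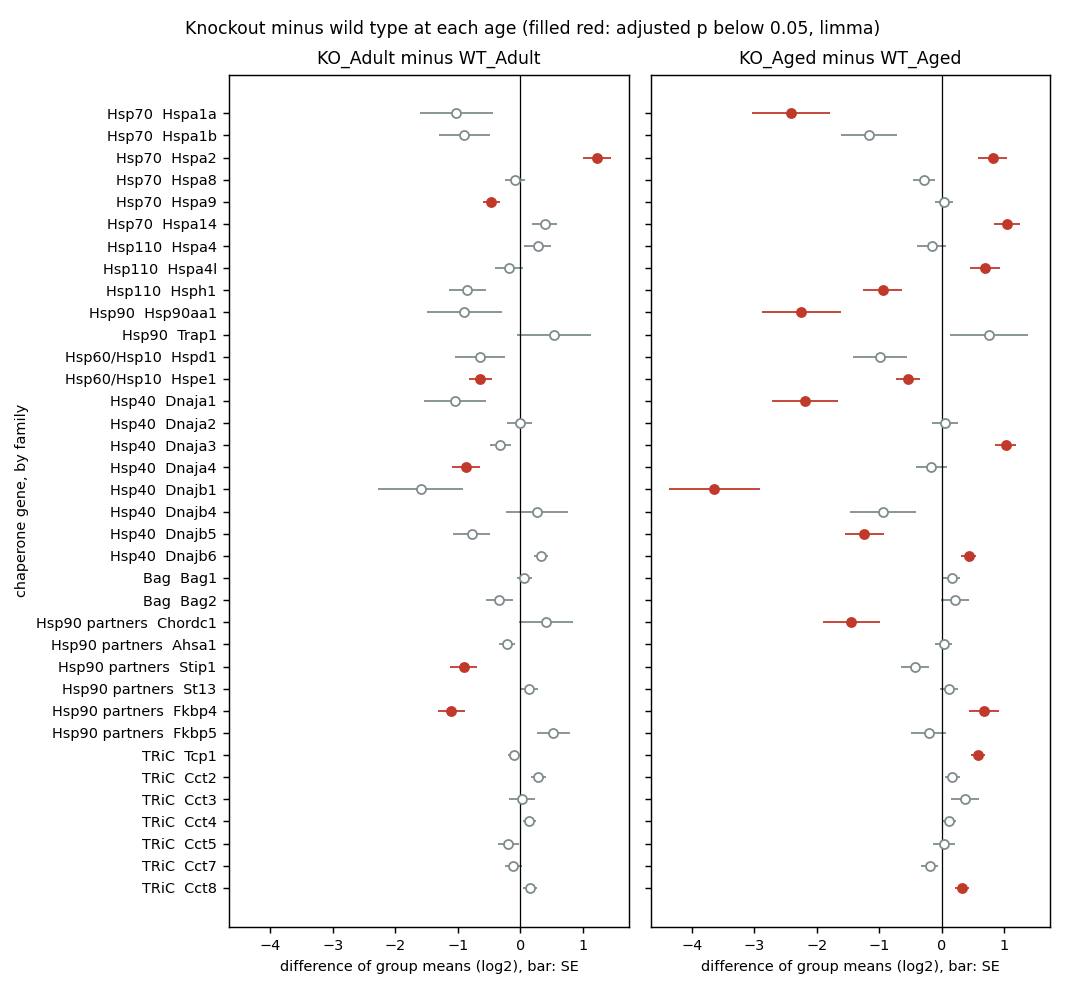
Knockout minus wild type (log2, bars: standard error) for the 36 tested chaperone genes in adult and aged muscle, ordered by family, with red points for an adjusted p below 0.05. Dnajb1, Hspa1a, Hsp90aa1 and Dnaja1 lie farthest to the left in aged muscle, and Hspa2 lies to the right at both ages.

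For the TRiC ring, none of its 7 listed subunits passed between KO_Adult and WT_Adult (limma, with only Cct2 at an unadjusted p below 0.05). Between KO_Aged and WT_Aged 2 of these 7 rose, beside 16.9% of all genes called higher there. Both lost their call with the batch term. Tcp1 had 5943, 6992, 7029.6 and 6457 in KO_Aged muscles, against 4424, 4243, 4373, 4608 and 4398 in WT_Aged muscles, and 4889.5, 4883, 4156, 4548 and 4478 in KO_Adult against 4654, 4678, 5271, 5148 and 4761 in WT_Adult muscles. All 4 KO_Aged arrays were above the other 15 arrays. The aged difference was 0.58 ± 0.11 (SE, adjusted p = 0.00069), the batch term gave 0.43 (adjusted p = 0.132), and without the arrays of high Gapdh ratio, which were its 2 highest, it was 0.49 (adjusted p = 0.0195). Cct8 had 2182 to 2479 in KO_Aged and 1742 to 1995 in WT_Aged muscles (0.32, adjusted p = 0.045, and 0.15 with the term, adjusted p = 0.65). It lost its call in 8 of the 9 fits that left out 1 array (0.29 to 0.35). The other 5 listed subunits ranged from -0.20 for Cct7 to 0.38 for Cct3 in that comparison. Cct6a, a TRiC subunit outside the list, differed by -0.25 there (adjusted p = 0.100). Further probe sets of Cct3 and Cct4 did pass (adjusted over all probe sets). For Cct3, sets with mean intensities of 3392, 2337 and 1032 differed by 0.64, 0.69 and 1.39 in aged muscle (adjusted p = 0.0165, 0.0447 and 0.00745), where the set used had a mean of 4026. For Cct4, a set with a mean of 1478 differed by 0.70 in adult and -0.62 in aged muscle (adjusted p = 0.0101 and 0.0144), and one with a mean of 621 by -0.98 in aged muscle (adjusted p = 0.00798), so the direction of Cct4 is uncertain.

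Between ages, 3 of 36 members rose and 1 fell in KO_Aged relative to KO_Adult muscles, beside 3.68% and 3.75% of all genes (7.44% in either direction). The median difference was 0.24, beside 0.031. With median centring 1 rose and 2 fell, beside 166 and 301 of all genes, and with no normalisation 1 rose and 2 fell, beside 477 and 227. Without overlap 6 members were higher and 2 lower, beside 4.25% and 3.89% of all genes. Hspa4l, an Hsp110 that exchanges the nucleotide of Hsp70, had the KO_Aged values given above, against 87.8, 73.5, 127, 98.6 and 91 in KO_Adult muscles. No arrays overlapped (1.07 ± 0.23, SE, adjusted p = 0.0114; 1.29 with the batch term, adjusted p = 0.0171). Tcp1 rose by 0.52 and 0.43 without and with the term (adjusted p = 0.0079 and 0.0429). Cct2 had 4907, 5446, 6162 and 5355 in KO_Aged and 3601, 3948, 4362, 4602 and 3959.8 in KO_Adult muscles, again without overlap (0.42 ± 0.12, SE, adjusted p = 0.0431; 0.53 with the term, adjusted p = 0.0333). Cct2 lost its call in 7 of 9 fits that left out 1 array (0.36 to 0.47). Dnajb5 differed by -1.59 and, with the term, by -1.88 (adjusted p = 0.00637 and 0.0118), against KO_Adult values of 2573, 1678, 1382, 1599 and 1479. With the term Hspa4 (adjusted p = 0.0229) and Dnajb4 (adjusted p = 0.0484) were also called higher, which made 5 higher and 1 lower, beside 4.80% and 5.18% of all genes. Without the 2 arrays of high Gapdh ratio none of these passed with limma (9 members had an unadjusted p below 0.05), the differences being 1.16 for Hspa4l, 0.43 for Tcp1, 0.33 for Cct2 and -0.75 for Dnajb5. Inside the arrays without control signal no member passed with limma, beside 0.0269% and 0.0403% of all genes called. At the looser cut of an unadjusted p below 0.05, without a share of all genes, there were 11 members. Fkbp5, an immunophilin induced by glucocorticoids, had 1609.8, 1496, 1210.0 and 1283 in KO_Aged and 3122, 2064, 2092, 3623 and 2662 in KO_Adult muscles. Its groups did not overlap, and its difference of -0.93 ± 0.28 (SE) missed the threshold (adjusted p = 0.0502). In wild-type muscles Fkbp5 had 1356, 1165, 2108, 1349 and 2366 in WT_Aged and 1992, 1247, 2331, 1163 and 3118 in WT_Adult muscles, with overlap (-0.20, adjusted p = 0.574).

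Aged and adult wild-type muscles could be compared only across the labelling batches. There 8 members were called higher, Chordc1 at 1.64, Hsp90aa1 at 1.59, Dnajb4 at 1.49, Dnaja1 at 1.32, Hspa4 at 0.97, Cct2 at 0.54, the constitutive Hsp70 Hspa8 at 0.43 and Cct4 at 0.31. A further 4 were called lower, Fkbp4 at -1.30, Dnajb5 at -1.13, Dnaja3 at -0.99 and Hspa14 at -0.53. These counts stand beside 18.1% and 20.8% of all genes (38.9% in either direction), and the median was 0.16, beside -0.030. With median centring 9 rose and 3 fell, beside 1621 and 1016 of all genes, whose median was then 0.075. Without overlap 6 members were higher and 5 lower, beside 12.0% and 17.4% of all genes. Leaving out single arrays cost Hspa8, Hspa14 and Hsp90aa1 their calls in 8 of 10 fits each (0.35 to 0.54, -0.66 to -0.46 and 1.19 to 1.85), Dnaja1 in 7 (0.94 to 1.64) and Dnajb4 in 4 (1.24 to 1.78). With the batch term 5 of the 12 turned their sign, Chordc1 to -0.42, Hsp90aa1 to -0.59, Dnajb4 to -0.71, Dnaja1 to -0.25 and Hspa14 to 0.093. No member then passed with limma, beside 0.0672% and 0.0269% of all genes called higher and lower. At the looser cut of an unadjusted p below 0.05, without a share of all genes, there were 5 members. Age and labelling batch cannot be told apart for these genes beyond what the KO_Adult arrays allow.

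The difference between knockout and wild type was larger or smaller in aged than in adult muscle for 4 members in the interaction test, beside 14.3% of all genes called higher and 10.8% called lower (25.1% in either direction). With median centring 2 members were called higher and 1 lower, beside 625 and 1087 of all genes against 1060.0 and 804, and with no normalisation 5 and 1, beside 1480.0 and 602. The median of all genes was 0.033, -0.14 with median centring and 0.17 with no normalisation. Dnaja3 (1.34 ± 0.24, SE, adjusted p = 0.000851), Fkbp4 (1.77, adjusted p = 0.00107) and Tcp1 (0.68, adjusted p = 0.00345) were called higher and Chordc1 (-1.85, adjusted p = 0.0387) lower. Fkbp4 had 961, 722, 868 and 899 in KO_Aged and 529, 543, 567, 525 and 519.9 in WT_Aged muscles. The KO_Aged arrays overlapped the KO_Adult arrays without control signal, and the WT_Aged arrays lay near the KO_Adult arrays with it. With the batch term the interaction was -0.086 for Fkbp4, 1.44 for Chordc1, 0.61 for Dnaja3 and 0.43 for Tcp1. None of them passed (adjusted p = 0.908, 0.337, 0.422 and 0.389), beside 0.0134% of all genes called in each direction, or 1 gene each. At the looser cut of an unadjusted p below 0.05 (limma), without a share of all genes, there were 3 members. Without the batch term Chordc1 lost its call in 12 of 19 fits that left out 1 array (-2.20 to -1.61).

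Hsf2, a heat shock factor that acts beside Hsf1, split by labelling batch and not by group. Its normalised intensity was 12, 10, 431, 655 and 294 in KO_Adult, 1.04, 6.19, 12.9, 1.05 and 7.1 in WT_Adult, 4.02, 7.07, 1.05 and 1.04 in KO_Aged and 329.7, 507, 379, 497 and 499 in WT_Aged muscles. The 8 arrays with control signal ranged from 294 to 655 and the other 11 from 1.04 to 12.9. Within KO_Adult muscles the same split separated replicates 3 to 5 from replicates 1 and 2. Hsf2 was shown for every array after its values were seen, as were Dnaja1, Dnajb5, Hsph1, Stip1, Hspe1, Hspa4l, Cct2 and Trap1.

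Of the remaining members, Trap1, the mitochondrial Hsp90, had 2328, 2316, 1279, 1044 and 1278 in KO_Adult and 1486, 2595, 2912, 116 and 1057 in WT_Adult muscles, and 2039.7, 1893, 2506 and 2105 in KO_Aged and 1428, 1354, 789, 1473 and 1383 in WT_Aged muscles. WT_Adult replicate 4 was far below every other array, and Trap1 passed at neither age (adjusted p = 0.551 and 0.378). On the probe sets used, Hspa8, Dnaja2, Bag1, Bag2, Ahsa1, St13, Cct3, Cct4, Cct5 and Cct7 also passed in neither genotype comparison. Their largest adult difference was -0.33 for Bag2, a nucleotide exchange factor, and their largest aged difference was 0.38 for Cct3. Hspa8, whose set used had a mean of 21428, passed on others: one with a mean of 15721 differed by -0.54 in adult muscle (adjusted p = 0.0214), and those with means of 8931 and 301 differed by -1.16 and -3.70 in aged muscle (adjusted p = 0.0091 and 0.00135). A second Dnaja2 set, with a mean of 553 against 1750, differed by -0.42 in aged muscle (adjusted p = 0.0454). Ahsa1, which speeds the ATPase of Hsp90, ranged only from 2318 to 3792 over the 19 arrays. Dnajb4, a J protein of muscle and other tissues, had 1827 to 12406 in KO_Adult and 2062 to 9069 in WT_Adult muscles, and 3939.5 to 10133 in KO_Aged and 9635 to 13624 in WT_Aged muscles, and passed at neither age (0.26 and -0.94, adjusted p = 0.753 and 0.192). Hspa1b at -1.16 did not pass in aged muscle (adjusted p = 0.0537), though its groups did not overlap. Its 2 other probe sets, with means of 15769 and 15326 against 16448, did pass there at -1.45 and -1.59 (adjusted p = 0.00744 and 0.0399). Hspa4 had 1647 to 3322 in KO_Adult and 1402 to 3146 in WT_Adult muscles, and 3217 to 3895 in KO_Aged and 3241 to 4569 in WT_Aged muscles, and its 2 dimmer probe sets differed by -2.73 and -1.85 between KO_Aged and WT_Aged muscles, where the brightest one differed by -0.16.

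Related protein quality genes outside the list were read from the same fits. Of 7 tested genes of the small heat shock proteins and their partner Bag3, 2 fell and none rose in KO_Adult relative to WT_Adult muscles, Hspb2 at -0.88 (adjusted p = 0.0045) and Bag3 at -0.87 (adjusted p = 0.0274), with Hspb8 at -0.36 (adjusted p = 0.132). In KO_Aged relative to WT_Aged muscles 4 of 7 fell and none rose, led by Hspb2 at -1.01 (adjusted p = 0.00137), Hspb8 at -0.52 and the lens and muscle chaperone Cryab at -0.41. With the batch term 2 were called lower in adult muscle, Bag3 at -1.20 and Hspb8 at -0.70 (adjusted p = 0.036 and 0.025), and 1 in aged muscle, Hspb2 at -1.19 (adjusted p = 0.0497). Hspb2 was then -0.77 in adult muscle (adjusted p = 0.0746), and in aged muscle Hspb8 was 0.051 and Cryab -0.50 (adjusted p = 0.916 and 0.189). Of 22 other cytosolic cochaperones 2 rose and 5 fell in adult knockout muscle, led by Bag6 at -1.03, Dnajb2 at -0.65 and Dnajc9 at 0.64, and 4 rose and 3 fell in aged knockout muscle, led by Ttc4 at 0.88, Bag6 at 1.06 and Dnajb2 at -0.68. Of 18 chaperones of the endoplasmic reticulum 1 rose and 2 fell in adult knockout muscle, led by Calr at -0.77, Dnajc3 at 0.85 and Pdia3 at -0.66, and 1 rose and 5 fell in aged knockout muscle, led by Dnajc3 at -1.63, Sdf2l1 at -2.39 and Pdia4 at -2.91. Of 16 mitochondrial import and protease genes 1 rose and 3 fell in adult knockout muscle, led by Clpb at -0.76, Spg7 at -0.62 and Tomm20 at 0.45, and 1 rose and none fell in aged knockout muscle, Lonp1 at 1.15, with Afg3l2 at 0.39 and Yme1l1 at -0.91 next. Of 9 prefoldin and TRiC genes outside the list 1 rose in adult knockout muscle, Pdcl3 at 0.68, with Pfdn1 at 0.31 and Pfdn2 at 0.42 next. In aged knockout muscle 1 of them fell, Pfdn2 at -1.22, with the TRiC subunit Cct6a at -0.25 and Pfdn5 at 0.46 next. These counts read against the backgrounds given above for each comparison. With the batch term most of these calls were lost. In adult muscle 1 cytosolic cochaperone was then called higher and 2 lower, 1 mitochondrial gene higher and none lower, and 1 chaperone of the endoplasmic reticulum lower and none higher, and Pdcl3 lost its call. In aged muscle 1 cytosolic cochaperone was called higher and 1 lower, and the genes of the mitochondrial, prefoldin and endoplasmic reticulum lists named above lost their calls. Dnajc3 was 0.0023 in adult and -0.21 in aged muscle with the term, Sdf2l1 -1.62 and Pdia4 -1.003 in aged muscle (adjusted p = 0.995, 0.665, 0.17 and 0.454), and Yme1l1 and Pfdn5 turned to 1.08 and -0.13 in aged muscle.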

How the data were processed

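The deposited intensity values are MAS5 signals (per the submitters' processing notes). Each array's mean, trimmed by 2% at each end, was 500.2 to 500.3 and its lowest value 1. The genome build was not given in the sources used here. Control probe sets were removed, 4.76 (the 10th percentile) was added before log2, and quantile normalisation was applied because array medians spanned 0.63. For each gene the brightest of 20380 single-symbol probe sets (by mean log2 value) was kept, and the upper 60% of genes (7436) were tested with limma 3.58.1 in R 4.3.3, all 4 groups in 1 fit, with Benjamini-Hochberg adjustment over all genes tested and a threshold of 0.05. Normalised intensities printed are on the linear scale, and levels of different probe sets are not compared. Counts of members at an unadjusted p below 0.05 have no share of all genes beside them and are not comparable with the shares of genes called. The number of arrays limits the precision. The limma step was tested on simulated data. The members, the gene lists and the tests were chosen with earlier results of these data known. Every array value is given for called members whose groups do not overlap (up to 6, by adjusted p) and for Hspa1a, Hsp90aa1, Hspd1 and Fkbp5 as 1 member of each family, and of further lists the 3 smallest p in each genotype comparison are named. Alternatives covered normalisation, pseudocount, filter, probe set, groups in the fit, labelling batch, high Gapdh ratio, variance model and each array. Figures used matplotlib 3.10.9 with Python 3.11.15. Promoters came from RefSeq.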

Additional observations from a re-analysis of the deposited data

Results flagged for a closer look

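WT_Aged replicate 1 stood apart from the other 4 arrays of its group for a pair of J proteins. For Dnajb1 it was the lowest at 3826, against 10652 on the next array, a gap of 0.787 of the group's whole range on the log2 scale. For Dnaja1 it was the lowest at 7534, against 12166 on the next array, a gap of 0.744 of the range. For Trap1, WT_Aged replicate 3 was the lowest at 789, against 1354 on the next array, a gap of 0.865 of the range. Chance flags about 1 in 20 groups, and 76 groups of arrays were examined, of which these 3 stood out.

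The knockout effect differed between aged and adult muscle, by the interaction test, for Dnaja3 at 1.34, Fkbp4 at 1.77, Tcp1 at 0.68 and Chordc1 at -1.85. Each of these values was computed across the labelling batches, and none passed with the batch term.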

How the results depend on the processing

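No paired analysis was run because the labels state no pairing of arrays. The codes that end the array titles were not used. The labelling batch term changed the most calls. The number of members called in KO_Aged against WT_Aged was 16, and 1 with the batch term, 6 without the arrays of high Gapdh ratio and 1 with both, an alternative chosen after seeing the data. In WT_Aged against WT_Adult it was 12, and 0 with the term, alone or without those arrays (5 and 7 members at an unadjusted p below 0.05, limma). In the interaction it was 4, and 0 in both those fits (3 and 5 unadjusted). In KO_Adult against WT_Adult it was 6, and 0 inside the arrays without control signal (9 unadjusted). In KO_Aged against KO_Adult it was 4, and 2 with the mean of probe sets, 1 with only the groups compared, 0 inside the arrays without control signal (11 unadjusted) and 0 without the arrays of high Gapdh ratio (9 unadjusted). Calls over all 7436 genes, in the same fits and order, were 2190, 408, 1059 and 560 for KO_Aged against WT_Aged. For WT_Aged against WT_Adult they were 2891, 7 and 5, and for the interaction 1864, 2 and 0. For KO_Adult against WT_Adult they were 1241 and 106, and for KO_Aged against KO_Adult 553, 393, 51, 5 and 117. Leaving out each array gave 4 to 8, 10 to 16, 7 to 12, 3 to 4 and 3 to 5 members called in KO_Adult against WT_Adult, KO_Aged against WT_Aged, WT_Aged against WT_Adult, KO_Aged against KO_Adult and the interaction; 10 came without KO_Aged replicate 2 or 3, and 7 without WT_Adult replicate 3 or WT_Aged replicate 2. Over all genes these fits called 751 to 1521, 1562 to 2301, 2135 to 3098, 191 to 724 and 1386 to 2319, in the same order. Des differed by -5.21 to -4.86 in adult and -5.75 to -4.86 in aged muscle.

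Signs turned in these cases, with the cause not tested. With the mean of its probe sets Dnajb6 was -0.25 in KO_Aged against WT_Aged. With the batch term, and then also without the arrays of high Gapdh ratio, Chordc1 was 0.61 and 0.89 there, Fkbp4 -0.49 and -0.38, and Hsp90aa1 0.38 in the second fit. In WT_Aged against WT_Adult both fits gave Hspa14 0.093, Hsp90aa1 -0.59, Dnaja1 -0.25, Dnajb4 -0.71 and Chordc1 -0.42. In the interaction Chordc1 was 1.44 and 1.72, and Fkbp4 -0.086 in the first fit. Hspa2 in KO_Adult against WT_Adult stayed between 1.10 and 1.36 and was called whichever array was left out.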
